A study of Mus musculus with 4 samples.

Results

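The interleukin-1 family of cytokines, with interleukin-33 (IL-33) and the receptors and inhibitors of the family, was examined in the injured cortex of wild-type mice and of mice labelled Ndrg2KO. The members are 10 genes, chosen by name with results of the comparison known: the cytokines Il1a, Il1b, Il18 and Il33, the inhibitors Il1rn and Il18bp, and the receptors Il1r1, Il1r2, Il1rl1 and Il1rap. They were found through the RefSeq accession that the array gives for each probe, which matched all 10 of these genes among 20832 named genes, with 13 of 39429 probes and 22 spots per array. The ratios of knockout-labelled to wild-type samples were in view when the genes were chosen. For the members these ratios are therefore given as a description, and no p-value is printed. Which members passed in the fit over all probes is listed, but nothing is read from those calls.

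The series held 4 two-colour arrays. On each, a knockout-labelled sample was labelled with Cy3 and the wild-type sample of the same replicate number with Cy5. All samples came from 8-week-old C57BL/6 mice whose left middle cerebral artery had been closed permanently by electrocoagulation (permanent MCAO), and the ipsilateral cortex was taken 24 h later, so no uninjured cortex was compared. Ndrg2 belongs to the N-myc downstream regulated gene family and is strongly expressed in astrocytes. The labels give neither the deleted part of the gene nor whether each sample was a separate animal, so spreads and p-values describe these samples only and may in part be technical.

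Some properties of the whole series bear on the values that follow. Spots well above background made up 73.6 to 74.9% in the channel of the knockout-labelled samples and 76.7 to 79.0% in the other. The Ndrg2 probe itself had a mean log2 ratio of -0.18 ± 0.05 (SD, n = 4), with an adjusted p of 0.0244 in limma, and did not check the genotype, so the word knockout-labelled is used throughout. No array had the dyes exchanged, and genotype and dye therefore cannot be told apart at a single probe. Markers of cortical neurons were present, and all 10 of those listed were measured. In whole tissue, fewer cells of a type and less RNA per cell cannot be told apart.

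IL-1α and IL-1β are cytokines that act on the receptor IL1R1 together with its accessory protein IL1RAP, and they drive inflammation through MYD88 and NF-κB. IL1RN is a secreted antagonist that occupies the receptor without signalling, and IL1R2 is a decoy receptor. IL-18 is a related cytokine held in check by its binding protein IL18BP. IL-33 is an alarmin, stored in the nucleus and set free by damaged cells. In the brain it is made largely by oligodendrocytes and astrocytes, and it is sensed by IL1RL1 (ST2), which also uses IL1RAP and occurs in a soluble decoy form.

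The stretches upstream of annotated start sites are shown for the cytokine genes with the widest spread of ratios across arrays, Il33 (both annotated starts) and Il1b, and for Il1a, the neighbour of Il1b on chromosome 2. Each is the 250 bases before a start in RefSeq, build GRCm38.p6, written 5′ to 3′ on the strand of the gene. Capitals mark matches to TATAAA on the gene's strand or, on either strand, to the AP-1 motif TGANTCA. The Il33 stretches lie at chr19:29924863-29925112, plus strand and chr19:29945540-29945789, plus strand, that of Il1b at chr2:129371140-129371389, minus strand and that of Il1a at chr2:129309973-129310222, minus strand.
Il33 first start: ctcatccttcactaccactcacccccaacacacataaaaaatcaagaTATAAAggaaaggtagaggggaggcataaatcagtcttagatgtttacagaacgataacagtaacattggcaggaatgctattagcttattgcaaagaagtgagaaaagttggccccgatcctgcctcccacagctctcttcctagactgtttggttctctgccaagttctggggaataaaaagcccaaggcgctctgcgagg
Il33 second start: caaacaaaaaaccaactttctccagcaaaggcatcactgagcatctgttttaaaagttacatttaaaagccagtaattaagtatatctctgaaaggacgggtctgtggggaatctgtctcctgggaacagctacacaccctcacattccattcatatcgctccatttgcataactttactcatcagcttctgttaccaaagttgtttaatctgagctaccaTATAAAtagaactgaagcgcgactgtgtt
Il1b: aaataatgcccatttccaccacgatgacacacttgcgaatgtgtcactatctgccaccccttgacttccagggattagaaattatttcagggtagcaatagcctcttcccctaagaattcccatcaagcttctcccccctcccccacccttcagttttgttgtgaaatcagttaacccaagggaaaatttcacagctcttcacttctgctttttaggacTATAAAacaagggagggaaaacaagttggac
Il1a: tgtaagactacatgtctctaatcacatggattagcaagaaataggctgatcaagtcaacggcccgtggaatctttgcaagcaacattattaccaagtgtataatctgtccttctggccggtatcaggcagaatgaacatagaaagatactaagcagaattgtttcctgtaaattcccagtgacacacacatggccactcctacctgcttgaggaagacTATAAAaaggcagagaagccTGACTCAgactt

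TATAAA was found at -29 to -24 from the second Il33 start, at -31 to -26 from the Il1b start and at -32 to -27 from the Il1a start. Before the first Il33 start it lay farther away, at -203 to -198. In all, 4 of the 15 stretches annotated for the 10 genes held TATAAA, against 7.59% of 32851 stretches of the same length. The AP-1 motif was found at -12 to -6 in Il1a (TGACTCA) and at -141 to -135 before the first Il1rn start (TGAGTCA), and 6.75% of all stretches held it. A κB motif (GGG, any 2 bases, then TTTCC, on either strand) was found in 1 of the 15, before the last Il1rn start, and 1.41% of all stretches held it. TTCNNNGAA, the motif of STAT factors, was found only before Il1r2 among these 15 and in 7.02% of all, and an interferon response motif (GAAA, any 2 bases, then GAAA) in 0 of the 15 and in 2.98% of all. The last 2 Il1rn stretches overlap each other. These matches describe letters and no binding was measured.

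Across the 10 genes the largest difference belonged to Il33, which was lower in the knockout-labelled sample on all 4 arrays, by a mean log2 ratio of 0.90 with an SD of 0.78 (n = 4), which is 1.86-fold. Il1b was lower on 2 arrays and higher on the others. The inhibitor Il18bp and the receptors Il1r1 and Il1rl1 were lower on all 4 arrays. Their mean ratios were 1.18 to 1.28-fold lower, and on single arrays the difference ran from 1.07 to 1.55-fold. Il18, Il1a and Il1rn lay near equality with signs that differed between arrays. All ratios were normalized by loess, which sets the middle of the probes at every intensity near 0 on each array.

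Of the 13 probes, 11 were kept, covering all 10 genes, because 3 or more arrays showed them well above background in 1 channel. In 10 of the 11 this held in both channels on all 4 arrays, and no spot was saturated. Over these 11 probes 9 had a mean ratio below 0, with a median of -0.24 against -0.01 over all 30259 kept probes. In the fit over all probes (limma, adjusted p under 0.05) the probes of Il33, Il18bp, Il1r1 and Il1rl1 passed as lower, 4 of the 11, and none passed as higher. Over all probes 11.7% passed as lower, 9.29% as higher and 20.9% in either direction. Since this contrast was known when the members were chosen, nothing is read from their count or from the call of any single member. The same 4 lay below 0 on all 4 arrays, as did 23.5% of all kept probes, and none lay above 0 on all 4, as did 19.8%. Over the alternative settings for processing and samples, between 1 and 6 member probes passed as lower. The share of all probes that passed as lower moved as well, from 4.48% without replicate 2 to 51.6% with median centring. With median centring Il33, Il18bp, Il1r1, Il1r2, Il1b and Il18 passed as lower, Il1a and Il1rn as higher, and Il1rl1 did not pass. With log ratios as the scanner software gave them only Il1rl1 passed as lower (6.7% of all probes), and without replicate 1 only Il1rl1 (5.39%). Without replicate 2 Il18bp and Il1rl1 passed as lower (4.48%), as they did with offset 16 for the background correction (9.19%). Without replicate 3 the call of Il1r1 ended, and with an intensity trend in the variance model that of Il33. With unpaired channels Il18bp alone passed (5.87% of all probes), whereas without replicate 4 Il1r2 and a probe of Il1rap passed too (7.15%).

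**Figure D1:**
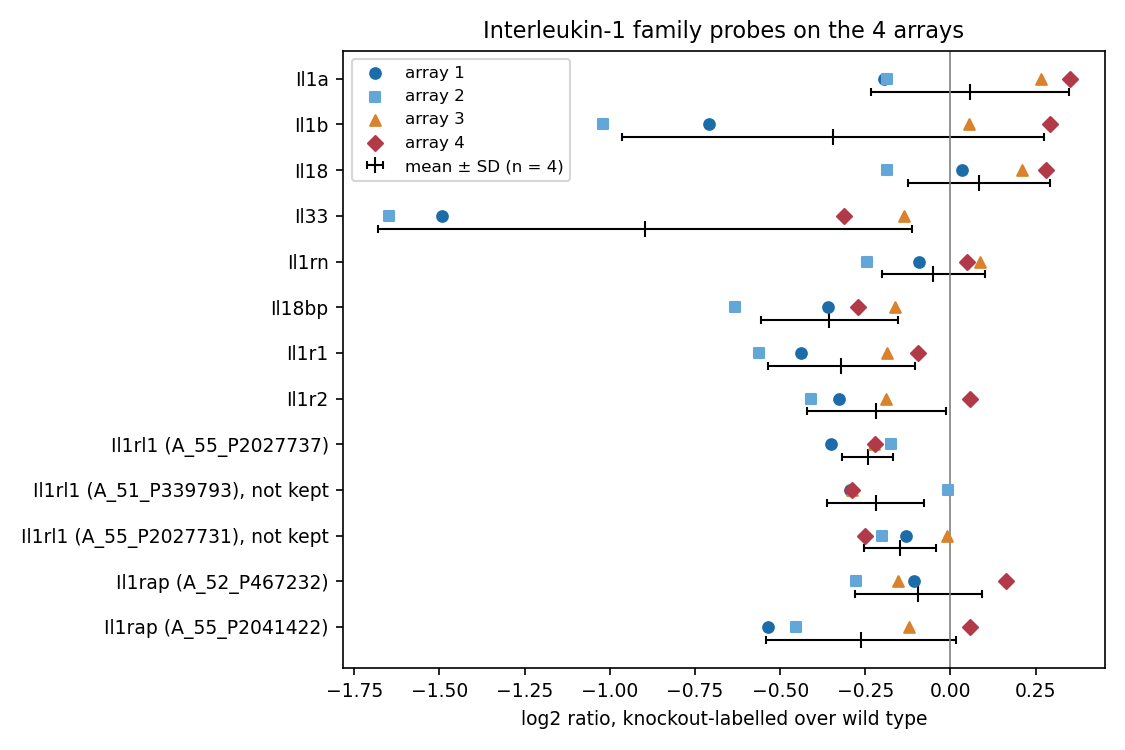
Log2 ratio (knockout-labelled to wild type, horizontal axis) for each of the 13 probes of the 10 genes (rows), with 1 symbol per array and the mean ± SD over 4 arrays as a black bar. Il33 reaches from -1.65 to -0.14, and arrays 1 and 2 lie left of arrays 3 and 4 for Il33, Il1b and Il1a.

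Among the cytokines, Il33 had log2 ratios of -1.49, -1.65, -0.14 and -0.31 on arrays 1 to 4, which correspond to 2.82-fold, 3.13-fold, 1.099-fold and 1.24-fold lower. Arrays 1 and 2 thus carried most of the difference. Its normalized log2 level in the wild-type samples was 12.94, 13.15, 12.98 and 12.99. In the knockout-labelled samples it was 11.44, 11.50, 12.84 and 12.67, so the spread between arrays lay mainly in these samples, with an SD of 0.75 against 0.09 in wild type. All 4 knockout-labelled levels lay below all 4 wild-type levels, which among the 11 kept probes held for Il33 alone and over all kept probes for 9.93% in this direction. The opposite order held for none of the 11 and for 9.77% of all kept probes. The probe was bright, at 47.1 to 117 times the local background in the knockout-labelled channel and 142 to 168 times in the wild-type channel. None of the 2414 probes of like intensity (within 0.5 on the log2 scale) had a lower mean ratio, and their median was 0.01. Nothing is read from this rank, since the ratio was known when Il33 was chosen. Leaving out single arrays gave means from -1.15 to -0.65.

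Il1b was read by a probe printed 10 times on each array, which gives its precision within an array. The means over these spots were -0.71 ± 0.07 on array 1 (SD over 10 spots), -1.02 ± 0.07 on array 2 (9 spots), 0.05 ± 0.06 on array 3 (9 spots) and 0.29 ± 0.04 on array 4 (10 spots). Every spot used on arrays 1 and 2 lay below 0 and every spot on array 4 above it, while on array 3 there were 2 of 9 below 0. The spread between arrays, an SD of 0.62 around a mean of -0.35 (n = 4), was thus far wider than that between spots of an array. Replicate spots share an array and an RNA sample, so they show the precision of the measurement and are not biological replicates. Over all 335 kept probes printed 10 times, the median SD between spots was 0.05 on each array.

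**Figure D2:**
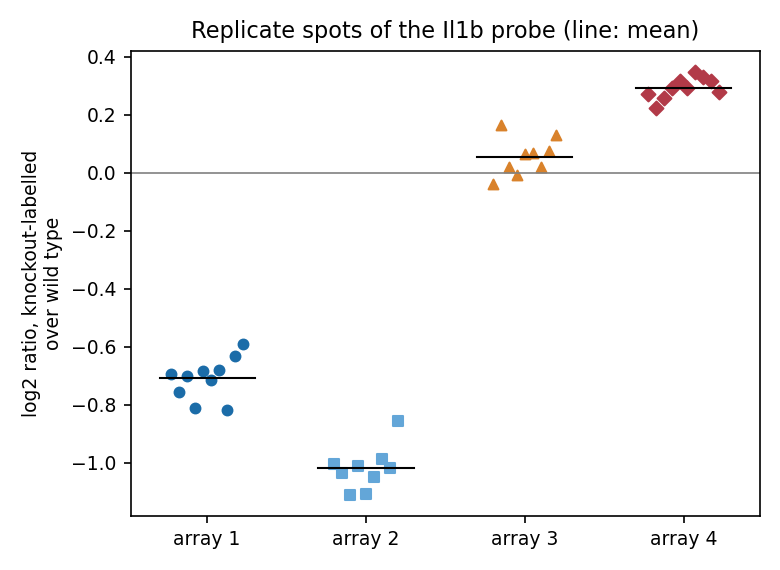
Log2 ratio (knockout-labelled to wild type, vertical axis) for each replicate spot of the Il1b probe, by array, with the mean of each array as a line. The spots of each array lie close together, around -0.71, -1.02, 0.05 and 0.29, and the arrays lie apart.

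The levels of Il1b showed the same division as those of Il33. In wild type they were 8.47, 8.53, 8.49 and 8.79 on arrays 1 to 4, and in the knockout-labelled samples 7.76, 7.51, 8.54 and 9.08. Knockout-labelled samples 1 and 2 lay below all wild-type samples and sample 4 above them, so the groups overlapped. The SD was 0.72 in the knockout-labelled and 0.15 in the wild-type samples. The ratio kept its sign in all 13 alternatives run for this probe, from -0.56 to -0.12. A wider spread in the knockout-labelled channel was common on these arrays: 18665 of all 30259 kept probes (61.7%) had it, as did 9 of the 11 member probes.

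Il1a, although it lies beside Il1b, was measured near background. Its log2 ratios were -0.20, -0.19, 0.26 and 0.35, with a mean of 0.06 ± 0.29 (SD, n = 4). Arrays 1 and 2 were again lower than arrays 3 and 4. The probe was well above background on 2 of 4 arrays in the knockout-labelled channel and 3 of 4 in the wild-type channel, at 1.13 to 1.97 times the local background, so its ratio is poorly determined. Its sign turned in 2 of 12 alternatives, and its value reached 0.65 when median centring replaced loess.

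Il18 was bright and differed little. Its ratios were 0.03, -0.19, 0.21 and 0.28, with a mean of 0.08 ± 0.21 (SD, n = 4). The wild-type levels lay between 11.21 and 11.34 and the knockout-labelled levels between 11.15 and 11.51, so the groups overlapped. Under median centring the sign turned, to -0.22.

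**Figure D3:**
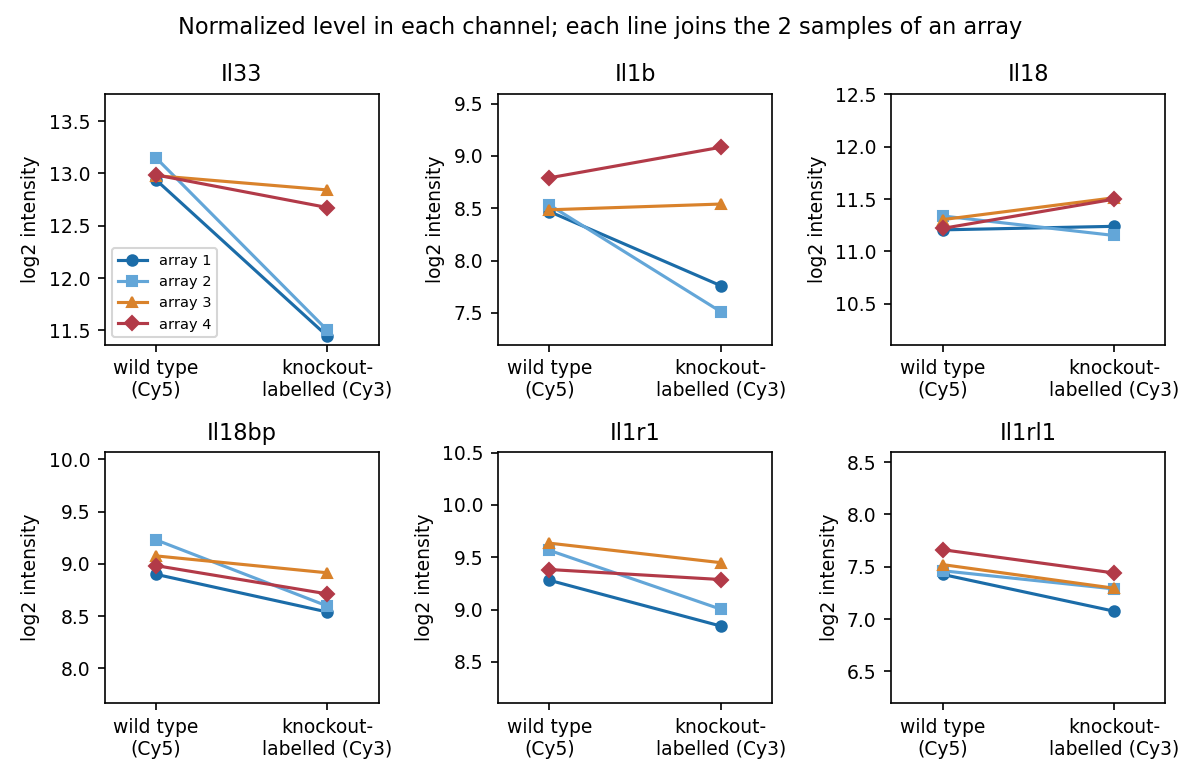
Normalized log2 intensity (vertical axis) in the wild-type and the knockout-labelled sample of each array for Il33, Il1b, Il18, Il18bp, Il1r1 and the kept Il1rl1 probe, with a line for each of the 4 arrays and the same height of axis (2.4 log2 units) in every panel. For Il33 the wild-type samples lie together, and knockout-labelled samples 1 and 2 lie below samples 3 and 4.

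Of the inhibitors, Il18bp was lower on every array, with ratios of -0.36, -0.63, -0.16 and -0.27 and a mean of -0.36 ± 0.20 (SD, n = 4), or 1.28-fold. Its levels were 8.90, 9.23, 9.08 and 8.98 in wild type and 8.54, 8.60, 8.91 and 8.71 in the knockout-labelled samples. Knockout-labelled sample 3 was brighter than wild-type sample 1, so the groups overlapped by these 2 samples, although each pair on an array had the same order. The value kept its sign in all 13 alternatives, from -0.50 to -0.26. Il1rn, the receptor antagonist, had ratios of -0.09, -0.24, 0.09 and 0.05 and a mean of -0.05 ± 0.15. Its spot signals were 1.75 to 2.39 times the local background, and its value was 0.36 with median centring and -0.45 with the scanner software's log ratios.

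Among the receptors, Il1r1, the signalling receptor for IL-1, had ratios of -0.44, -0.56, -0.19 and -0.10. The mean was -0.32 ± 0.22 (SD, n = 4), or 1.25-fold lower. Its wild-type levels were 9.28, 9.57, 9.63 and 9.38 and its knockout-labelled levels 8.84, 9.003, 9.45 and 9.29. The groups overlapped, with the lowest 2 levels in knockout-labelled samples 1 and 2. Leaving out single arrays gave -0.40 to -0.24.

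Il1r2, the decoy receptor, which is abundant in neutrophils, had ratios of -0.33, -0.41, -0.19 and 0.06, with a mean of -0.22 ± 0.20. It was thus lower on 3 of 4 arrays and did not pass. Its levels were 7.73, 8.04, 8.28 and 8.10 in wild type and 7.40, 7.63, 8.09 and 8.15 in the knockout-labelled samples, which overlapped.

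The receptor for IL-33 differed from its ligand in how even the values were. The kept probe of Il1rl1 (A_55_P2027737) had ratios of -0.35, -0.17, -0.23 and -0.22, with a mean of -0.24 ± 0.08 (SD, n = 4), or 1.18-fold lower. This was the smallest spread among the 11 kept probes, against an SD of 0.78 for Il33. Such a spread was common at this level: the median SD of 5135 probes of like intensity was 0.11, and 26.3% had a smaller one. Around Il33 the median SD was 0.08. Its levels were 7.43, 7.46, 7.52 and 7.66 in wild type and 7.08, 7.29, 7.29 and 7.44 in the knockout-labelled samples, with knockout-labelled sample 4 above wild-type sample 1. With the scanner software's log ratios and other alternatives the value ranged from -0.32 to -0.07. The kept probe was dim, at 2.11 to 3.28 times the local background in the knockout-labelled channel and 2.85 to 3.36 times in the other. The gene's other probes, A_51_P339793 and A_55_P2027731, were not well above background on any array in either channel, so no level can be given for the transcripts they read. They still had mean ratios of -0.22 ± 0.14 and -0.15 ± 0.10, below 0 on all 4 arrays. Whether the ratio of the kept probe reflects the transcript was not tested. Which probe reads the membrane-bound and which the soluble form was not settled here.

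Il1rap, the accessory protein shared by IL1R1 and IL1RL1, was read by 2 kept probes with different accessions. The brighter one, A_52_P467232, had ratios of -0.11, -0.28, -0.16 and 0.16 (mean -0.09 ± 0.19, n = 4). The dimmer one, A_55_P2041422, had -0.54, -0.45, -0.12 and 0.06 (mean -0.26 ± 0.28). Both were lower on arrays 1 to 3 and higher on array 4, and their groups overlapped.

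Set out by array, the 11 kept probes had a median of -0.35 on array 1, -0.41 on array 2, -0.14 on array 3 and 0.06 on array 4, while the median of all kept probes was -0.01 on each. On arrays 1 and 2, respectively, 10 and 11 of the 11 lay below 0, against 7 on array 3 and 4 on array 4. Of all kept probes 52.2 to 52.6% lay below 0 on an array. The probes are not independent of each other, since they share the samples. With 4 arrays an exact two-sided permutation test of a single value by turning signs cannot give a p below 0.125.

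By the root mean square difference of the 4 log ratios, the named genes most like Il33 among 16056 were Il6 (0.25), Klk6 (0.25), Ccl2 (0.26), Gdnf (0.27) and Timp1 (0.30). Il6, a cytokine of the acute phase, had ratios of -1.42, -1.997, 0.21 and -0.29, and Ccl2, the monocyte chemoattractant, of -1.29, -1.94, -0.07 and 0.06. Timp1, an inhibitor of metalloproteinases, had -1.72, -1.17, -0.05 and -0.06. The genes most like Il1b were Plaur (0.09), Angpt2 (0.11), Tnfaip2 (0.12), Ngfr (0.13) and Dach1 (0.15). Plaur, the urokinase receptor gene, had -0.87, -0.93, 0.03 and 0.25. These are nearest values over 4 arrays and no more is read from them.

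Of the wider pathway, 96 of 118 listed gene names were measured, and 15 fell, 2 rose and 79 did not pass (limma, adjusted p under 0.05). That is 15.6% lower and 2.08% higher, against 12.7% and 8.89% of all 17014 genes with 1 probe each. The lower share was thus near the background and the higher share below it. The lists were chosen with earlier results known, so no more is read from either. With unpaired channels 5 fell, with the scanner software's log ratios 6, and without replicate 1 or replicate 2 also 6 each. Of all probes, 5.87%, 6.7%, 5.39% and 4.48% were lower in these settings, in the same order.

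The rest of the family was mostly below detection. Of 11 further ligand and receptor genes on the array, 3 were kept and none passed: Sigirr, a negative regulator of the family's receptors, at -0.15 ± 0.11, Il1rapl1 at 0.01 ± 0.05 and Il1rapl2 at 0.03 ± 0.08. The interleukin-36 genes Il1f6, Il1f8, Il1f9 and Il1f5, the cytokine gene Il1f10 and the receptor genes Il18r1, Il18rap and Il1rl2 were not well above background on enough arrays to be kept. The receptor side of IL-18 was therefore not measurable here.

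Among 20 genes for processing and release, 5 fell and 15 did not pass, with a median of -0.06 against -0.02 over all genes. Casp1, the protease that cleaves pro-IL-1β and pro-IL-18, had ratios of -0.16, -0.16, -0.24 and -0.09 and fell by 0.17 ± 0.06 (adjusted p = 0.0352). Gsdmd, which forms the pore for release, fell by 0.21 ± 0.15 (adjusted p = 0.0497), a call that ended in 12 of 14 alternatives. Casp8, a protease that can also cleave pro-IL-1β, fell by 0.28 ± 0.20 (adjusted p = 0.0343). Ctss, a lysosomal cathepsin of microglia and macrophages, fell by 0.45 ± 0.11 (adjusted p = 0.00305) and Elane, the neutrophil elastase, which can trim extracellular IL-33, by 0.22 ± 0.06 (adjusted p = 0.0145). Ctss kept its call in all 14 alternatives, while Casp1 lost it in 7, Casp8 in 6 and Elane in 3.

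Among 37 signalling genes downstream of the receptors 7 fell, 2 rose and 28 did not pass, with a median of -0.04. Mapk8, which encodes the kinase JNK1, fell by 0.56 ± 0.09 (adjusted p = 0.00159), but its 2 other kept probes stood at 0.31 ± 0.12 and 0.06 ± 0.09. Peli2, a ubiquitin ligase of the IRAK pathway, rose by 0.45 ± 0.13 (adjusted p = 0.00392). Both Mapk8 and Peli2 are on chromosome 14, as is Ndrg2, and none of the 10 members is. Nfkbib, an inhibitor of NF-κB, fell by 0.23 ± 0.04 (adjusted p = 0.0112), with its other probes at -0.08 and -0.06. The kinase genes Map2k6 and Map2k4 fell by 0.22 ± 0.07 each (adjusted p = 0.0158 and 0.0167), and a second probe of Map2k4 stood at -0.04. Map2k6 lost its call in 3 of 14 alternatives (without replicate 1, 3 or 4) and Map2k4 in 4, namely without replicate 1 or 3, with unpaired channels and with the scanner software's log ratios.

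Among 24 genes known to be induced by IL-1, all 24 had a mean below 0, and their median was -0.20 against -0.02 over all genes. Only 1 passed, Cxcl5, a chemokine for neutrophils, which fell by 0.45 ± 0.40 (adjusted p = 0.0489) and lost its call in 9 of 14 alternatives. The list's median was -0.40, -0.64, -0.04 and 0.05 on arrays 1 to 4. On arrays 1 and 2, respectively, 23 and 22 of the 24 lay below 0, and on arrays 3 and 4 there were 14 and 10. Of all kept probes 52.2 to 52.6% lay below 0 on an array. The 24 genes share the samples, so their signs are not independent of each other. The lowest 2 means of the list, chosen after their values were seen, did not pass. Cxcl10, a chemokine for T cells, had ratios of -0.95, -3.27, -0.80 and -0.35, with a mean of -1.34 ± 1.31 (adjusted p = 0.0588). Il11, a cytokine, had -2.47, -2.63, -0.13 and 0.12, with a mean of -1.28 ± 1.47 (adjusted p = 0.0929). The list overlaps with genes induced by other inflammatory signals.

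Of 13 measured genes of type 2 responses, which IL-33 can set off, 2 fell and 11 did not pass, with a median of -0.10. Il4ra, a receptor for interleukins 4 and 13, fell by 0.44 ± 0.32 (adjusted p = 0.0312), with a second probe at -0.09, and the chemokine gene Ccl24 by 0.28 ± 0.14 (adjusted p = 0.0201). Il4ra lost its call in 5 of 14 alternatives, among them leaving out replicate 1 or 2, and Ccl24 in 4, among them leaving out replicate 2 or 3. The cytokine genes Il4, Il13 and Il9 and the growth factor gene Areg were not kept.

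**Figure D4:**
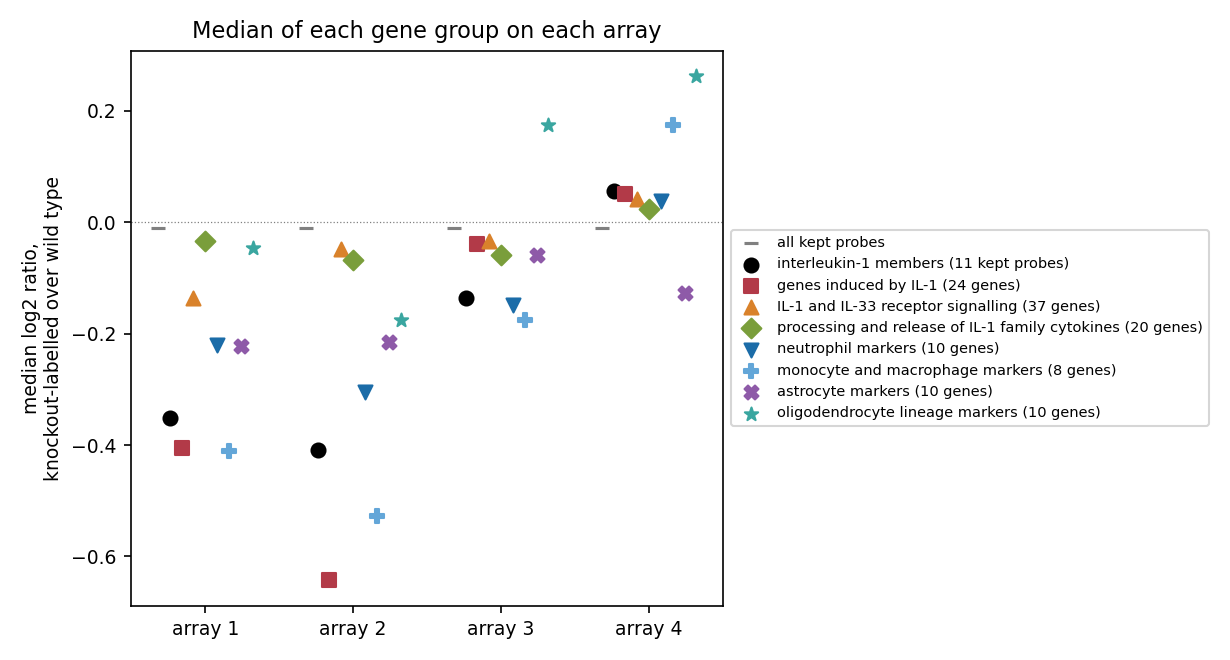
Median log2 ratio (knockout-labelled to wild type, vertical axis) on each array for the 11 kept member probes, for all kept probes and for lists of pathway and cell type marker genes, with the symbols of an array set side by side. The members, the genes induced by IL-1 and the monocyte and macrophage markers are lowest on arrays 1 and 2, and all kept probes stay at -0.01.

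Markers of cells that make or sense these cytokines were counted beside the members, and their covariation with them was not tested. The counts of lower markers stand against 12.7% of all genes, or 8.89% for higher. Neutrophil markers had medians of -0.22, -0.30, -0.15 and 0.04 on arrays 1 to 4, with 3 of 10 lower, among them Mcemp1 by 0.42 ± 0.08 (limma, adjusted p = 0.00273), and their summed log2 level was 15.49 to 15.74 in the knockout-labelled samples against 15.83 to 16.04 in wild type. Of this sum, 85.2% in wild type came from Csf3r, which fell by 0.25 ± 0.11 (limma, adjusted p = 0.0197). Without Csf3r the ranges overlapped, at 12.01 to 13.48 against 12.74 to 13.41. The neutrophil genes S100a8 and S100a9 had means of -0.68 ± 0.65 and -0.54 ± 0.64 and did not pass. Ngp and Ltf, granule genes that define neutrophils, were not kept. Monocyte and macrophage markers had medians of -0.41, -0.53, -0.18 and 0.18, with 3 of 8 lower. Among these were Ms4a4c by 0.49 ± 0.09 (limma, adjusted p = 0.00213) and Adgre1 by 0.39 ± 0.14. This Ms4a4c probe had mean log2 levels of 14.36 in the knockout-labelled and 14.85 in the wild-type samples. The other Ms4a4c probes were far dimmer, at mean log2 levels of 6.88 and 6.95, and stood at -0.19 ± 0.48 and -0.33 ± 0.79. Why the probes of this gene differ so much in level was not tested. Another Adgre1 probe stood at -0.09. Ccr2, Lyz2, Plac8, Vcan and Chil3 did not pass, with means from -0.30 (Plac8) to 0.10 (Chil3). On array 4 Chil3, Plac8, Ccr2 and Lyz2 lay above 0, at 1.41, 0.83, 0.60 and 0.52, and Vcan at -0.23. The summed level of the monocyte and macrophage list was 15.64 to 15.77 against 15.92 to 16.11. Of this sum, 50.9% in wild type came from Itgam. Without Itgam the ranges were 14.47 to 14.75 against 14.94 to 15.06. Most of that remaining sum came from the bright Ms4a4c probe, so neither range describes the list as a whole. The part of these cells in the ratios of Il1b, Il1r2 and Il18bp was not tested.

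For cells known to make IL-33, astrocyte markers had medians of -0.22, -0.21, -0.06 and -0.13, with 4 of 10 lower, among them Aldoc by 0.39 ± 0.09 and Slc1a2 by 0.30 ± 0.09 (limma, adjusted p = 0.00396 and 0.00845), and a summed level of 17.78 to 17.91 against 18.07 to 18.14. The list holds Ndrg2 itself, which is 1 of the 4. Without it 3 of 9 were lower, the medians were -0.23, -0.21, -0.05 and -0.15, and the summed level was 17.43 to 17.59 against 17.76 to 17.83. Other probes of Slc1a2 stood at -0.08 and -0.46. Oligodendrocyte lineage markers had medians of -0.05, -0.18, 0.17 and 0.26, with 2 of 10 higher, Mbp by 0.29 ± 0.23 and Olig2 by 0.16 ± 0.04 (limma, adjusted p = 0.0434 and 0.0344). With median centring both turned, to -0.16 and -0.088, and other probes of Mbp stood at -0.11 and 0.11. Their summed level was 17.13 to 17.67 against 17.36 to 17.44. The part of either cell type in the ratio of Il33 was not tested.

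Microglia markers had medians of -0.07, -0.03, -0.0016 and -0.21, with 3 of 10 lower, among them Cx3cr1 by 0.29 ± 0.06 and Olfml3 by 0.25 ± 0.09 (limma, adjusted p = 0.00678 and 0.0157), and a summed level of 16.61 to 16.76 against 16.80 to 16.95. A second probe stood at -0.09 for Cx3cr1 and at -0.42 for Olfml3. In the same list Gpr34, P2ry12 and Sall1 had means above 0, at 0.21 ± 0.38, 0.12 ± 0.21 and 0.09 ± 0.15, and did not pass. Endothelial markers, which belong to cells that respond to IL-1, had medians of -0.10, -0.15, 0.01 and -0.03, with 1 of 10 lower, Ly6a by 0.49 ± 0.35. That call was lost in 4 of 14 alternatives, namely without replicate 1 or 2, with unpaired channels and with the scanner software's log ratios. Cldn5, a tight junction gene, had a mean of 0.29 ± 0.26, Flt1 of 0.06 ± 0.18 and Kdr of 0.04 ± 0.07, and none of the 3 passed. Of markers of mast cells, basophils and innate lymphoid cells, which carry IL1RL1, 5 of 10 were kept and 1 was lower, Tpsb2 by 0.22 ± 0.11, while the defining genes Cpa3, Fcer1a, Ms4a2, Mcpt4 and Gata3 were not kept. Of lymphocyte markers (T, B and natural killer cells) 7 of 10 were kept and 1 was lower, Nkg7 by 0.23 ± 0.05. Of neuron markers 2 of 10 were lower, Gad2 by 0.24 ± 0.17 and Tbr1 by 0.21 ± 0.14, with a second probe of Tbr1 at 0.02. The calls of Gad2 and Tbr1 were lost in 6 of 14 alternatives each, that of Tpsb2 in 5 and that of Nkg7 in 2, leaving out single replicates among them.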

How the data were processed

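Total RNA of the ipsilateral cortex was measured on 4 two-colour Agilent arrays with 200 ng labelled per sample, per the labels. Agilent Feature Extraction is named as version 11.0.1.1 per the file headers and as 10.7.3.1 per the submitters' processing notes. Spot and background signals are linear intensities, per the file headers. The deposited log10 ratio is Cy5 over Cy3 of processed signals, and other values, per the file headers, are flags of 0 or 1. The deposited series matrix holds log2 values of the processed Cy5 over Cy3 signal (largest difference 2.60e-06 over 39030 probes with 1 spot), so it gives wild type relative to the knockout-labelled sample and its signs are opposite to those given here.

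The files gave median, not mean, spot signals. These were corrected with normexp (offset 50) and normalized by loess within each array in limma 3.58.1 (R 4.3.3), with control spots at weight 0. From 139 to 186 outlier spots per array were left out, spots of a probe were averaged and different probes were kept apart. Channel levels followed Aquantile. A probe was kept when well above background on at least 3 of 4 arrays in either channel (30259 of 39429). Names came from RefSeq accessions of GRCm38.p6 (27427 probes, 69.6%), and since the array is annotated on mm9, only the RefSeq promoter stretches carry coordinates. Each log2 ratio was tested against 0 with lmFit and eBayes, with Benjamini-Hochberg adjustment over all kept probes. The array pairs the 2 samples it carries. The brightest kept probe stood for a gene in lists. The steps were tested on simulated data, where the smallest fold changes put in were mostly missed.

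The members and lists were chosen with earlier results of these data known. The rule for named genes took all members, up to 5 genes with the smallest p that passed in each pathway list, up to 2 in each marker list, and the 5 genes nearest to Il33 and to Il1b. Lists were described by counts and medians. Alternatives were 3 background corrections, median centring, the scanner software's log ratio, 2 filters, an intensity trend, unpaired channels, 1 probe per gene and leaving out each array. Marker lists without Ndrg2 or without their brightest gene were added after seeing the data.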

Additional observations from a re-analysis of the deposited data

Results flagged for a closer look

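Over 40 probes examined (the 13 member probes and the named list genes), 3 had an outlying array by Dixon's ratio of the outlier's gap to the range of the 4 arrays, above its critical value. Chance alone flags about 1 in 20, or 2 here. The Il1rl1 probe A_51_P339793, which was not well above background on any array, had a ratio of gap to range of 0.980, with -0.01 on array 2 against -0.29 on each of the others. Adgre1 had 0.867, with -0.18 on array 2 against -0.49 to -0.45. Nkg7 had 0.906, with -0.15 on array 1 against -0.25 to -0.24.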

How the results depend on the processing

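The median over the 11 kept member probes, -0.24, stayed within 1 SD of its array-to-array spread (0.21) in all alternatives run for it. That SD is nearly as large as the median itself, so this is a loose bound. With median centring the members' median was -0.19 and that of all probes -0.16, against -0.24 and -0.01 with loess, so the members lay much closer to all probes. Of the single member ratios, those of Il33, Il1b, Il18bp, Il1r1, Il1r2, Il1rl1 and both Il1rap probes kept their sign in every alternative, and those of Il1a, Il1rn and Il18 did not. The cause of the differences below was not tested. With median centring the median of all probes was -0.16, 15614 probes were lower and 7883 higher, 64 and 19 pathway genes were lower and higher, and 2 member probes, of Il1a and Il1rn, were higher; Mbp and Olig2 reversed, to -0.16 and -0.088. With the scanner software's log ratios 1 member probe, 2028 of all probes and 6 pathway genes were lower and 1 pathway gene higher. With normexp offset 16 the lower member probes numbered 2 and the higher pathway genes 1. With no replicate block, the 8 channels being unpaired, 1 member probe was lower, 1776 probes were lower and 1682 higher, and 5 pathway genes were lower and 1 higher. Without single replicates the lower member probes numbered 1 to 6, all lower probes 1356 to 2164, all higher probes 1064 to 1651, lower pathway genes 6 to 19 and higher pathway genes 1 to 1. Of 27 named list genes 9 kept their call in every alternative and 18 lost it in at least 1. Dim probes, such as those of Il1a, Il1rn and Il1rl1, are limited by signal over background.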
